A study of Homo sapiens with 4 samples.

Results

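The 59 genes described here lie in a segment of human chromosome 11 named here for band q23, among 206 other listed genes. The segment runs from the lower end of RDX to the upper end of THY1 (chr11:109864295-119424985, GRCh38, 9.56 Mb). The 59 genes were picked by name and position, about 110 to 120 Mb, from the 65988 rows of the deposited count table. Their lower level in the resistant line was already known. RNA was sequenced from the established human cell line SKOV3, an ovarian carcinoma line, in a cisplatin-resistant derivative (CR, 2 libraries) and in the wild-type line (WT, 2 libraries). The CR cells came from WT cells through 6 cycles within 5 months, each a 4 hour exposure to cisplatin and 3 weeks in medium without it, with the concentration raised between cycles. Both lines were harvested untreated while growing exponentially, and strand-preserving libraries were made from polyadenylated RNA. The protocol describes a single selection and does not say that it was repeated, whether the CR line is a clone, or whether replicates are separate cultures, so the spread between replicates may be technical. A line kept as long in culture without drug was not analysed here, so the selection and time in culture cannot be told apart. DNA copy number and chromatin were not measured. In such bulk RNA, fewer cells carrying a transcript and less of it per cell cannot be told apart.

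The CR libraries held 65259794 and 79592903 counts and the WT libraries 43658695 and 53502349, which makes 1 CPM (reads per unit of library size, after TMM scaling of that size) worth 42.6 to 83.1 counts. The spread between replicates exceeded sampling noise, the ratio of chi-square to degrees of freedom being 50.2 in CR and 17.5 in WT. The carcinoma markers ERBB2, KRT8, KRT18, EPCAM, PAX8 and MUC16 summed to 3345 and 2672 CPM in CR libraries and to 6115 and 6689 CPM in WT libraries. Most of each sum was ERBB2, with 2841 and 2074 CPM in CR and 5248 and 5769 CPM in WT. PAX8 alone was higher in both CR libraries, with 5.04 and 4.27 CPM against 2.56 and 3.72 CPM in WT. MUC16 had only 2 and 3 counts in CR. The 4 leukocyte and endothelial markers PTPRC, CD3E, PECAM1 and VWF summed to 0.885 and 1.19 CPM in CR and to 10.6 and 8.32 CPM in WT. Most of each sum was PECAM1, with 0.765 and 0.854 CPM in CR and 10.2 and 7.65 CPM in WT. CD3E was at 0 in both CR libraries, PTPRC was at 0 in both WT libraries, and the part of these markers in the results was not tested.

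Genes that are neighbours on a chromosome need share no function, and the 11q23 band holds housekeeping genes of mitochondria, vesicle coats and the ribosome beside adhesion molecules of particular tissues. The band is known in cancer for KMT2A, which is broken and fused to other genes in acute leukaemias, and for CADM1, an adhesion molecule studied as a tumour suppressor in carcinomas. CBL and USP2 act on the ubiquitin tagging of proteins, CBL on receptor tyrosine kinases, the family to which ERBB2 belongs.

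Most genes of the segment were lower in CR cells, by amounts that differed between genes. Of the 59 genes, 3 (NNMT, FXYD6 and THY1) were listed at 0 in all libraries and were not measured, 7 had too few counts to be tested, and 49 were tested. Over these 49 genes the median log2 change was -0.59, a CR level of 0.663 of the WT level, with quartiles of -0.91 and -0.24, against a median of 0.003 over all 18602 genes tested. edgeR's quasi-likelihood test with a Benjamini-Hochberg adjusted p under 0.05 called 34 genes lower and 4 higher, where 23.2% of all genes tested were called lower and 22.1% higher, 45.3% in all. Both CR libraries lay below both WT libraries for 39 of the 49 and above them for 5, beside 36.4% and 37.2% of all genes tested. Because the genes were chosen from this same comparison, these counts are a description, and nothing is read from their distance to the background. All changes below are CR over WT on the log2 scale (± SE), and rose, fell or lower as a call mean this threshold.

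Most falls were small. Of the 34 genes that fell, 27 fell by less than 2-fold, beside 7 that fell by at least 2-fold, where 11.9% of all genes tested fell by that much. A rise of at least 2-fold was found for TREH alone, where 8.76% of all genes tested rose by that much. Summed over the 59 genes, the CR libraries held 1848 and 1694 CPM and the WT libraries 2532 and 2489 CPM. Taking the libraries in pairs, the median difference over the 49 tested genes was -0.53 and -0.51 for CR replicate 1 against WT replicates 1 and 2, and -0.65 and -0.63 for CR replicate 2 against the same libraries.

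**Figure D1:**
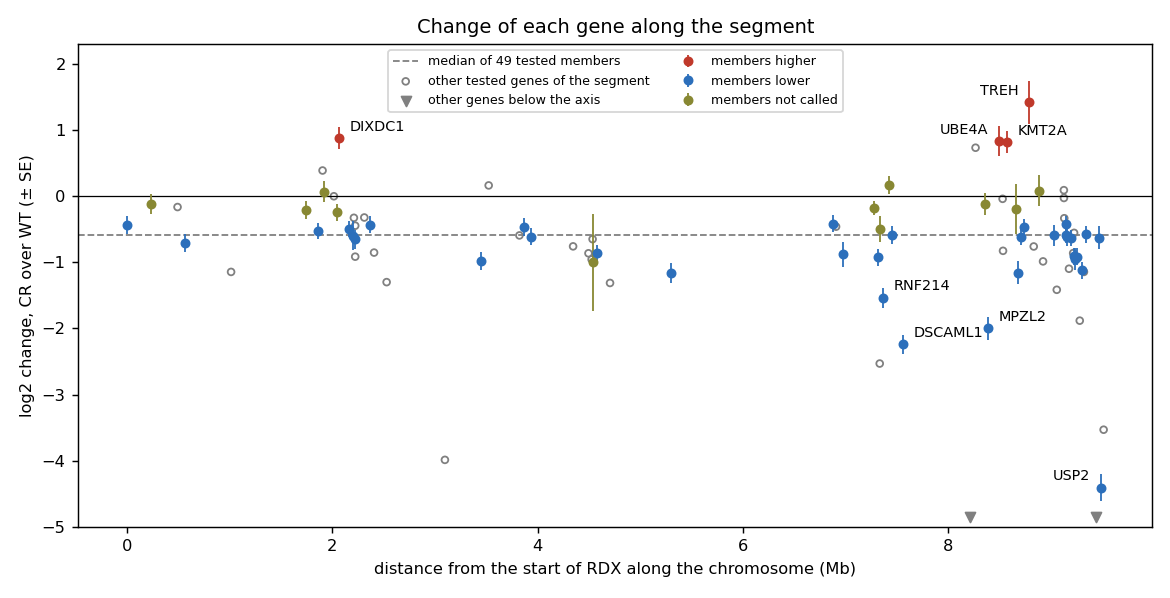
Log2 change of each tested gene, CR over WT, against its distance in Mb from the lower end of RDX, with bars for the SE of the 49 genes studied and open circles for 37 other genes of the segment. The points spread around the dashed median of -0.59, with quartiles of -0.91 and -0.24 for the 49 genes. The 2 triangles mark genes below the axis, TMPRSS4 and MCAM.

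Stretches of 120 bases before the start sites of 6 genes are printed to show the start regions of genes that rose and of genes that fell. They belong to the 3 largest rises and the 3 largest falls among genes whose RefSeq start lies within 200 bases of the GENCODE start and whose 250 bases before the RefSeq start hold 120 unbroken bases free of exons. DIXDC1, which rose by more than UBE4A and KMT2A, did not meet the last condition. The sequences are from RefSeq, GRCh38.p14, on the strand of the gene, 5′ to 3′, with CpG dinucleotides in capitals. The genes that rose are TREH (chr11:118679691-118679810, minus strand), UBE4A (chr11:118359465-118359584, plus strand) and KMT2A (chr11:118436344-118436463, plus strand). Those that fell are SIDT2 (chr11:117178613-117178732, plus strand), HINFP (chr11:119121460-119121579, plus strand) and SIK3 (chr11:117098438-117098557, minus strand).
TREH: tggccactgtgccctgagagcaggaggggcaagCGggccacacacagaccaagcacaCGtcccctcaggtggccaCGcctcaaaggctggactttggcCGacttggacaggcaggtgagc
UBE4A: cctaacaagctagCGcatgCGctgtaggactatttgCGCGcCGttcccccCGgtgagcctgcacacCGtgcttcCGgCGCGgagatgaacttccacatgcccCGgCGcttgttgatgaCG
KMT2A: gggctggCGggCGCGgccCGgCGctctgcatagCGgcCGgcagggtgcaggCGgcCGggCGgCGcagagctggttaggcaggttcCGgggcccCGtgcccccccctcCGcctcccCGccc
SIDT2: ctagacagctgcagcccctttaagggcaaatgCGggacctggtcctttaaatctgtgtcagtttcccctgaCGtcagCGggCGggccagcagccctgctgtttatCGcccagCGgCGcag
HINFP: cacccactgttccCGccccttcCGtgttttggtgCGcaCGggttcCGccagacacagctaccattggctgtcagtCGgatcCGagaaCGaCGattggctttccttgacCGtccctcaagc
SIK3: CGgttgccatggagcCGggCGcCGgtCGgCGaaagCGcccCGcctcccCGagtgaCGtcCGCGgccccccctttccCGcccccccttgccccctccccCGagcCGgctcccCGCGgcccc

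The TREH stretch has 4 CpG dinucleotides, while UBE4A has 13, KMT2A 15, SIDT2 7, HINFP 10 and SIK3 17. The genes that rose and those that fell therefore both include CpG-dense starts. RefSeq windows from 250 bases before to 50 after the start were matched by symbol for 43 of the 59 genes, 41 of them tested. For these genes the window nearest the GENCODE start was taken, and for other tested protein-coding genes the first one listed. The sets are thus not chosen alike. Some nearest windows still lie far off, at 17518 bases from the GENCODE start for USP2 and 13297 for CEP164. The ratio of observed to expected CpG in the window had a median of 0.85 over these 41 genes, beside 0.82 over 10841 tested protein-coding genes and 0.58 over all 35116 windows. It exceeded 0.6 in 35 of the 41 (85.4%), beside 78.4% of tested protein-coding genes and 48.8% of all windows, and it was 0.17 for TREH. Across the 41 genes its Spearman correlation with the log2 change was -0.14, where the genes share the same libraries.

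Short motifs were counted on both strands of these windows, and matches of different motifs may overlap. The shares set beside them carry the same difference in the choice of window. The GC box GGGCGG was found in 29 of the 41 windows (70.7%), beside 68.0% of tested protein-coding genes and 45.0% of all windows. The ETS-type letters CCGGAAG were in 12 (29.3%), beside 17.4% and 10.3%, and the E-box CACGTG in 6 (14.6%), beside 9.53% and 7.26%. CCAAT was in 14 (34.1%), beside 36.0% and 34.6%. TATAAA was in 1 window (2.44%), beside 6.03% and 11.5%, and the AP-1 letters TGANTCA in none, beside 4.91% and 7.71%. As letter matches these are a description of the start regions, which were mostly of the CpG-rich, TATA-less kind.

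Among the 9 kinases, phosphatase subunits and ubiquitin enzymes, all tested, 7 fell and UBE4A rose, with a median change of -0.61. USP2 (chr11:119355215-119381726, minus strand), a deubiquitinase, had 0.975 and 1.40 CPM in CR libraries, against 25.5 and 25.2 CPM in WT libraries. The CR level was 4.67% of the WT level, and the change of -4.41 ± 0.21 was the largest of the 49. It rests on 65 and 116 counts in CR and 1088 and 1295 in WT, so both groups were well above a handful of reads. USP2-AS1, an antisense transcript whose start lies close to that of USP2, had 0.975 and 1.35 CPM in CR and 13.3 and 13.8 CPM in WT, a change of -3.53 ± 0.22. The spans of USP2 and USP2-AS1 do not overlap in GENCODE, where USP2-AS1 begins at 119381778, beyond the end of USP2. Genes on the opposite strand cover 33.6% of USP2. AP003396.3, an antisense gene inside the USP2 span, was at 0 in all libraries. The strand setting of the authors' counting is not given in the sources used here, and its part in the USP2 counts was not tested.

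RNF214, a RING finger protein, had 9.84 and 8.90 CPM in CR libraries and 25.5 and 28.7 CPM in WT libraries, and fell by 1.54 ± 0.15. CBL, the ligase that tags activated receptor tyrosine kinases, had 64.1 and 52.7 CPM in CR and 92.5 and 82.0 CPM in WT (-0.58 ± 0.13). For both genes the groups stood clear of each other. The deubiquitinase USP28 fell by 0.61 ± 0.12, with 46.0 and 40.9 CPM in CR and 67.6 and 65.1 CPM in WT. RNF26, a RING finger protein of the endoplasmic reticulum, had 28.8 and 20.1 CPM in CR and 35.0 and 40.5 CPM in WT (-0.63 ± 0.17). Without CR replicate 2 its change was -0.39 and was not called.

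UBE4A, a ubiquitin chain assembly factor, was the exception in this group. It had 37.7 and 21.0 CPM in CR libraries and 16.2 and 16.7 CPM in WT libraries, and rose by 0.83 ± 0.23. The CR libraries were both higher but far apart, and without CR replicate 1 the change was 0.35 and was not called. Of the salt-inducible kinases, SIK3 had 15.4 and 10.4 CPM in CR and 25.01 and 22.5 CPM in WT, and fell by 0.88 ± 0.19. SIK2 had 39.8 and 33.5 CPM in CR and 44.8 and 39.9 CPM in WT. Both CR libraries of SIK2 were below both WT libraries, the nearest by little, and the change of -0.21 ± 0.14 was not called. PPP2R1B, a scaffold subunit of protein phosphatase 2A, had 38.0 and 36.6 CPM in CR and 54.9 and 52.1 CPM in WT (-0.52 ± 0.12). The kinase pair thus differed in its calls, and the difference between SIK2 and SIK3 was not tested.

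Of the 14 surface proteins, adhesion molecules and membrane proteases, 8 were tested, 4 fell and none rose, with a median of -0.71. DSCAML1 (chr11:117427773-117817525, minus strand), an immunoglobulin superfamily adhesion molecule best known in neurons, had 8.30 and 9.78 CPM in CR libraries and 41.5 and 44.0 CPM in WT libraries. It fell by 2.24 ± 0.15, to 21.1% of the WT level. MPZL2, an epithelial adhesion molecule, had 4.29 and 3.85 CPM in CR and 17.4 and 15.2 CPM in WT, and fell by 2.00 ± 0.17. CADM1 (chr11:115169218-115504957, minus strand), an adhesion molecule of epithelial contacts, had 31.3 and 23.6 CPM in CR and 60.8 and 62.1 CPM in WT, and fell by 1.16 ± 0.15. SIDT2, a lysosomal membrane protein, had 18.4 and 18.7 CPM in CR and 34.7 and 35.8 CPM in WT (-0.92 ± 0.13). In all 4 the CR libraries stood well below the WT libraries.

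The other 4 tested surface genes did not pass. MPZL3, next to MPZL2 and of the same family, had 9.92 and 8.47 CPM in CR and 9.91 and 10.03 CPM in WT (-0.12 ± 0.17), so that its groups overlapped where those of MPZL2 stood apart. BACE1, the beta-secretase, had 43.6 and 36.9 CPM in CR and 35.3 and 36.5 CPM in WT (0.17 ± 0.13). TMEM25 stayed near 1 CPM in all libraries (-0.20 ± 0.38). The proprotein convertase PCSK7 had 17.0 and 11.5 CPM in CR and 18.1 and 22.01 CPM in WT (-0.49 ± 0.20). PCSK7 was called lower without CR replicate 1 (-0.80) and without WT replicate 1 (-0.62). With all libraries kept it was also called lower by DESeq2 (-0.50), by limma-voom (-0.53), without the filter on low counts (-0.47) and with the replicate block (-0.51).

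Of the 11 genes of mitochondria, metabolism and glycosylation, 10 were tested, 7 fell and TREH rose, with a median of -0.55. FDX1, the ferredoxin that passes electrons to mitochondrial enzymes, had 20.8 and 20.5 CPM in CR libraries and 35.5 and 32.1 CPM in WT libraries, and fell by 0.71 ± 0.13. DLAT, the acetyltransferase subunit of pyruvate dehydrogenase, had 51.3 and 44.9 CPM in CR and 68.4 and 67.2 CPM in WT (-0.49 ± 0.12). TIMM8B, a chaperone of protein import into mitochondria, had 20.6 and 26.0 CPM in CR and 37.5 and 36.0 CPM in WT (-0.66 ± 0.15). All 3 had both CR libraries below both WT libraries. REXO2, a nuclease of short RNAs in mitochondria, fell by 0.87 ± 0.13, with 40.9 and 48.7 CPM in CR and 84.4 and 79.2 CPM in WT.

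DPAGT1, which starts the sugar chain of N-glycosylation, had 38.8 and 38.7 CPM in CR libraries and 66.7 and 79.0 CPM in WT libraries, and fell by 0.91 ± 0.13. ALG9, a mannosyltransferase of the same pathway, had 10.7 and 10.1 CPM in CR and 9.39 and 10.3 CPM in WT (0.07 ± 0.16). The pathway's enzymes in the segment thus did not share a call, but other genes cover 51.9% of DPAGT1 and 95.4% of ALG9 in the annotation, so both values are less certain. Genes on the same strand cover 0% of DPAGT1 and 95.4% of ALG9. SLC37A4, the glucose-6-phosphate carrier of the endoplasmic reticulum, had 17.2 and 16.9 CPM in CR and 26.1 in both WT libraries (-0.61 ± 0.14). PTS, an enzyme of tetrahydrobiopterin synthesis, had 25.9 and 28.2 CPM in CR and 35.7 and 37.2 CPM in WT (-0.43 ± 0.13). The change of PTS was not called without WT replicate 1 (-0.45), WT replicate 2 (-0.40) or CR replicate 1 (-0.37), nor with library totals alone (-0.33). PAFAH1B2, a subunit of platelet-activating factor acetylhydrolase, had 117 and 115 CPM in CR and 134 and 128 CPM in WT and was not called (-0.18 ± 0.11).

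TREH, the enzyme that splits trehalose, had the largest rise of the 49, 1.42 ± 0.33. Its levels were 1.98 and 2.31 CPM in CR libraries and 0.892 and 0.721 CPM in WT libraries. These are low levels, the CR mean being 266% of the WT mean.

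The 4 genes of membrane traffic all fell, with a median of -0.62. ARCN1, the delta subunit of the COPI coat, had 149.6 and 122 CPM in CR libraries and 223 and 194 CPM in WT libraries (-0.61 ± 0.13). VPS11, a core subunit of the tethers that fuse endosomes and lysosomes, had 33.4 and 33.5 CPM in CR and 50.6 and 52.8 CPM in WT (-0.63 ± 0.12). TRAPPC4, a subunit of the TRAPP tethers, had 36.2 and 33.8 CPM in CR and 53.5 and 51.6 CPM in WT (-0.59 ± 0.12). These 3 changes were close to the median of the 49 genes, -0.59. C2CD2L, a lipid transfer protein of contacts between endoplasmic reticulum and plasma membrane, fell by 0.95 ± 0.16, with 8.94 and 9.07 CPM in CR and 15.7 and 19.2 CPM in WT.

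Of the 8 genes of cytoskeleton, cilium and cell division, 7 were tested, 6 fell and DIXDC1 rose, with a median of -0.47. Genes with a role in the cilium were among those that fell. IFT46, of the intraflagellar transport train, had 5.12 and 4.64 CPM in CR libraries and 10.3 and 11.4 CPM in WT libraries (-1.16 ± 0.18). TTC12, needed for assembly of ciliary dynein arms, had 21.5 and 18.7 CPM in CR and 39.7 in both WT libraries (-0.98 ± 0.14). CEP164, of the appendages of the mother centriole, had 30.9 and 36.6 CPM in CR and 47.5 and 54.4 CPM in WT (-0.59 ± 0.14). In all 3 the highest CR library stayed below the lowest WT library.

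RDX, radixin, which ties actin to the plasma membrane, had 178 and 139.7 CPM in CR libraries and 230.3 and 201 CPM in WT libraries (-0.44 ± 0.14). The change of RDX was not called without WT replicate 1 (-0.33) or without CR replicate 2 (-0.28). ZW10, a kinetochore protein of the spindle checkpoint, had 31.0 and 26.7 CPM in CR and 41.5 and 38.4 CPM in WT (-0.47 ± 0.13), and was not called without WT replicate 1 (-0.40) or CR replicate 2 (-0.36). PHLDB1, a cortical microtubule anchor, had 82.3 and 86.3 CPM in CR and 108 and 124 CPM in WT (-0.46 ± 0.12), and was not called without WT replicate 2 (-0.36). These calls lie close to the threshold. DIXDC1 (chr11:111927144-112022584, plus strand), a DIX domain protein of Wnt signalling, had 57.3 and 40.2 CPM in CR and 28.0 and 24.9 CPM in WT, and rose by 0.88 ± 0.17. Of the genes studied on either side of it, CRYAB was not called (-0.24) and DLAT fell (-0.49).

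Of the 4 genes of transcription and chromatin, 3 were tested, 2 fell and KMT2A rose, with a median of -0.59. KMT2A, a histone H3 lysine methyltransferase, had 60.7 and 42.7 CPM in CR libraries and 30.01 and 28.5 CPM in WT libraries, and rose by 0.82 ± 0.16. Without CR replicate 1 the rise was 0.55 and was still called. Other genes cover 67.7% of KMT2A in the annotation, so its value is less certain. HINFP, a transcription factor of histone H4 genes, had 19.96 and 22.3 CPM in CR and 38.9 and 40.8 CPM in WT (-0.91 ± 0.13). BCL9L, a beta-catenin coactivator, had 39.3 and 29.8 CPM in CR and 46.9 and 57.1 CPM in WT (-0.59 ± 0.16), and was not called without WT replicate 2 (-0.44). KMT2A and UBE4A are near neighbours, and both had their larger value in CR replicate 1. Without that library UBE4A had 0.35 and was not called.

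Of the 5 genes of RNA handling and the ribosome, all tested, 2 fell and none rose, with a median of -0.42. RPS25, a protein of the small ribosomal subunit, had 161 and 197 CPM in CR libraries and 243 and 236 CPM in WT libraries (-0.42 ± 0.12). It was not called without WT replicate 1 (-0.39), WT replicate 2 (-0.44) or CR replicate 1 (-0.28), and processed copies of such genes elsewhere in the genome make its count less certain. BUD13, of a splicing complex that in yeast retains unspliced RNA, had 27.3 and 28.7 CPM in CR and 37.7 and 37.2 CPM in WT (-0.42 ± 0.13). It was likewise not called without WT replicate 1 (-0.40), WT replicate 2 (-0.43) or CR replicate 1 (-0.38), nor with library totals alone (-0.32). Both falls were thus small ones near the threshold.

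DDX6, the RNA helicase of processing bodies, had 42.1 and 22.7 CPM in CR libraries and 32.6 and 28.6 CPM in WT libraries (0.08 ± 0.23). Its CR libraries lay on either side of the WT libraries, and leaving 1 of them out gave opposite calls, -0.43 without CR replicate 1 and 0.46 without CR replicate 2. No direction can be given for this gene. ZC3H12C, a ribonuclease of the regnase family, was not called (-0.12 ± 0.15), and other genes cover 100% of it. RBM7, of the complex that targets nuclear RNA for decay, was not called either (-0.999 ± 0.73), at 0.240 and 0.0962 CPM in CR and 0.376 and 0.292 CPM in WT. Other genes cover 98.8% of RBM7, and it was the lowest of the tested genes in CPM.

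Of the 4 genes grouped as chaperones, innate sensor and scaffold, 3 were tested and 2 fell, with a median of -0.60. NLRX1, a sensor-family protein of mitochondria, had 28.2 and 27.2 CPM in CR libraries and 56.7 and 64.1 CPM in WT libraries, and fell by 1.12 ± 0.13. PIH1D2, a PIH domain protein, had 3.77 and 3.04 CPM in CR and 5.24 and 5.04 CPM in WT (-0.60 ± 0.22). PIH1D2 was not called without WT replicate 1 (-0.56), WT replicate 2 (-0.62) or CR replicate 2 (-0.45), nor with DESeq2 (-0.60), upper-quartile factors (-0.56) or library totals alone (-0.50). CRYAB, a small heat shock protein, had 44.4 and 53.7 CPM in CR and 57.1 and 59.1 CPM in WT and was not called (-0.24 ± 0.13). It was called lower without CR replicate 2 (-0.39) and with the replicate block (-0.25), and other genes cover 75.7% of it. NLRX1 was the clear fall of this group.

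**Figure D2:**
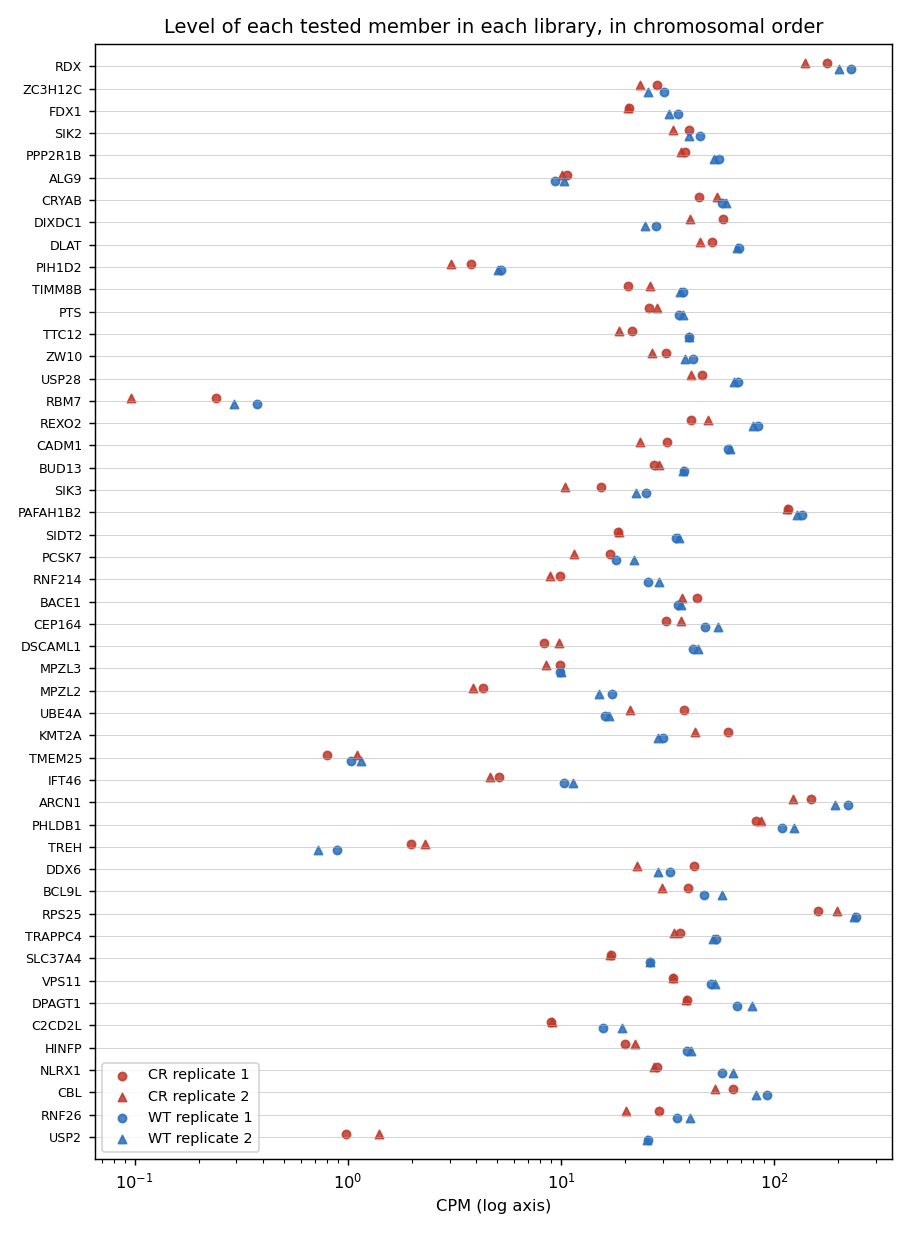
Level in CPM (log axis) of each of the 49 tested genes in each library, in chromosomal order from RDX to USP2, with CR in red and WT in blue and replicates 1 and 2 as circles and triangles. The red points lie left of the blue points for 39 genes and right of them for 5, and USP2 shows the widest gap, with 0.975 and 1.40 CPM in CR against 25.5 and 25.2 CPM in WT.

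The 7 genes measured but not tested were LAYN, FXYD2, TMPRSS13, IL10RA, ARHGAP20, ZBTB16 and PDZD3. ARHGAP20 had 1 and 12 counts in CR libraries and 5 and 8 in WT libraries, and PDZD3 had 5 and 1 in CR and 6 and 3 in WT. IL10RA, a chain of the interleukin 10 receptor, had 0 in both CR libraries and 0 and 12 counts in WT. LAYN had 1 and 0 counts in CR and 0 and 5 in WT, FXYD2, a sodium pump modulator, 0 and 1 in CR and 4 and 6 in WT, and the protease gene TMPRSS13 0 and 0 in CR and 5 and 0 in WT. ZBTB16, a zinc finger repressor, had 0 and 2 counts in CR and none in WT. No gene of this group had more than 12 counts in a library, and no direction is given for them. Of the 3 genes at 0 everywhere, other genes cover 100% of NNMT, 98.0% of FXYD6 and 100% of THY1.

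Per kilobase of exon, so that genes can be set beside each other, RPS25 had the highest level in both groups, 121 CPM per kb in CR and 162 in WT. ARCN1 followed with 32.6 CPM per kb in CR and 49.9 in WT, then TIMM8B with 19.99 in CR and 31.5 in WT, and RDX with 18.6 in CR and 25.3 in WT. The first 4 places were thus the same in both lines. USP2 had 0.261 CPM per kb in CR, rank 47, and 5.59 in WT, rank 24. At the low end of both groups, TMEM25 had 0.172 in CR and 0.197 in WT, and RBM7 had 0.0213 in CR and 0.0424 in WT.

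Replicates of the CR line differed more than those of the WT line for these genes. The median absolute difference over the 49 genes was 0.24 between the CR replicates and 0.11 between the WT replicates, beside 0.22 and 0.18 over all genes tested. CR replicate 1 was above CR replicate 2 for 33 of the 49, beside 9242 of all 18602 genes tested. Among the 37 other tested genes of the segment it was above for 9. The widest gaps, on the log2 CPM scale, were 1.19 for RBM7, 0.89 for DDX6, 0.84 for UBE4A, 0.56 for PCSK7 and SIK3, 0.52 for RNF26 and 0.51 for KMT2A and DIXDC1. At the other end stood USP2 (-0.51), TMEM25 (-0.47) and TIMM8B (-0.34). Of the 4 genes that rose in CR, UBE4A, KMT2A and DIXDC1 are among the widest gaps and TREH is not.

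**Figure D3:**
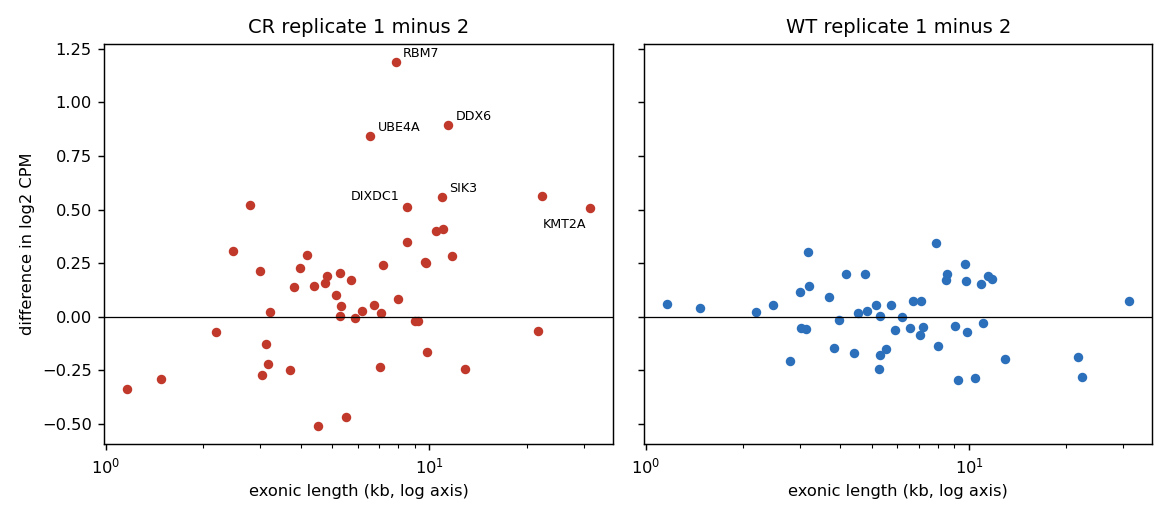
Difference in log2 CPM between replicate 1 and replicate 2 of CR (left) and of WT (right) for each of the 49 tested genes, against exonic length in kb (log axis). CR differences reach 1.19 for RBM7 and tend upward with length, and those of WT stay closer to 0.

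This gap between the CR replicates went with the length of the transcript. Its Spearman correlation with exonic length was 0.38 over the 49 genes and 0.24 over 18447 tested genes with a length, all from the same pair of libraries. The log2 change between CR and WT had a correlation with exonic length of 0.11 over the 49 genes and of -0.01 over the 18447. The part of length in the values of UBE4A, KMT2A, DIXDC1 and DDX6 was not tested.

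The fall was found along the whole segment, and its size differed between stretches of 2 Mb. The first stretch, RDX to ALG9, had a median of -0.33 over 6 tested genes, and the next, CRYAB to USP28, -0.49 over 9. The third, ZBTB16 to CADM1, had -0.999 over only 3 tested genes, RBM7, REXO2 and CADM1. BUD13 to FXYD6 had -0.59 over 9, and TMPRSS13 to THY1 -0.60 over 22. Of the 4 genes that rose, UBE4A, KMT2A and TREH lie in this last stretch, close to each other, and UBE4A is not called without CR replicate 1 (0.35). The stretches were not compared by a test.

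Several neighbours start close together on opposite strands, by the outer ends of the genes in GENCODE. Whether such a pair shares a start region in these cells was not measured. The nearest RefSeq start of IFT46 lies 7039 bases from its GENCODE start. RPS25 and TRAPPC4 both fell, by 0.42 and 0.59, and IFT46 and ARCN1 both fell, by 1.16 and 0.61. RNF214 fell by 1.54 while PCSK7, whose start lies 100 bases away, was not called (-0.49). TIMM8B fell by 0.66 and its partner SDHD, a subunit of succinate dehydrogenase, was not called (-0.45 ± 0.44), though other genes cover 99.7% of SDHD. RPS25 was not called without CR replicate 1 (-0.28), without WT replicate 1 (-0.39) or without WT replicate 2 (-0.44), and PCSK7 was called without CR replicate 1 (-0.80), without WT replicate 1 (-0.62) and by DESeq2 (-0.50). Among protein-coding genes, 8 such pairs held at least 1 of the genes studied, with starts within 1000 bases, neither gene inside the other and both tested. Both changes were below 0 in each, and TIMM8B is in more than 1 of the pairs. Of all 86 tested genes inside the segment, 87.2% had a change below 0, beside 49.9% of all genes tested. The part of the nearness of the starts was not tested.

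Other genes inside the same boundaries were also mostly lower. Of 206 listed, 130 were at 0 everywhere and 37 were tested, of which 17 fell and none rose, with a median of -0.83. By the same counts, 69.4% of the 49 genes studied, chosen with their lower level known, fell and 45.9% of these 37. The 37 hold 24 protein-coding genes, of which 54.2% fell, and 13 noncoding genes, of which 30.8% fell. Both CR libraries lay below both WT libraries for 79.6% of the 49 and 73.0% of the 37. TMPRSS4, a membrane serine protease, had no count in either CR library and 264 and 311 counts in WT, so it was at least 306-fold lower, taking a floor of 3 counts over the CR libraries. MCAM, the adhesion molecule CD146, had 2 counts in each CR library and 815 and 1115 in WT (-9.47, edgeR adjusted p = 3.64e-09). With so few CR counts the size of this fall is uncertain, and no SE is printed for it. NCAM1, a neural adhesion molecule, had 1.22 and 0.577 CPM in CR and 13.6 and 14.4 CPM in WT (-3.99 ± 0.29, edgeR adjusted p = 1.16e-06). These 3 are named because they had the largest falls among the 37. The actin-binding protein gene TAGLN, chosen here after its value was seen, fell by 2.53 ± 0.13. H2AFX, the histone variant phosphorylated at DNA breaks, had 74.4 and 100.1 CPM in CR and 113 and 143 CPM in WT (-0.56 ± 0.16, edgeR adjusted p = 0.0145). It was not called without WT replicate 2 (-0.37) or without CR replicate 1 (-0.36).

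**Figure D4:**
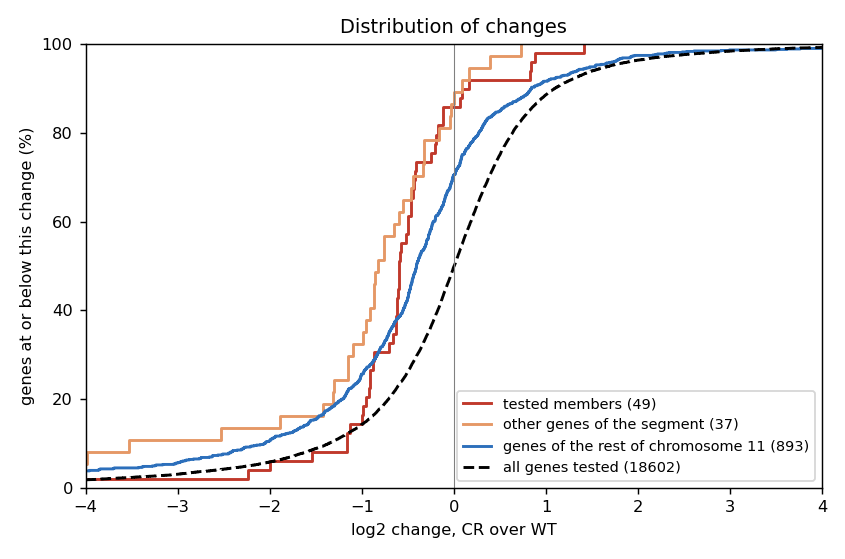
Share in percent of genes at or below each log2 change, CR over WT, for the 49 genes studied, the 37 other tested genes of the segment, 893 genes of the rest of chromosome 11 and all 18602 genes tested. The curve of the 49 genes is steep around its median of -0.59, and the curve of all genes crosses the middle at 0.003.

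Genes beside the segment also had medians below 0. The nearest tested protein-coding genes on the centromeric side were DDX10 (-0.32), EXPH5 (-0.76) and KDELC2 (0.58), of which KDELC2 alone was called, and the first genes inside were RDX (-0.44) and ZC3H12C (-0.12). RDX was not called without CR replicate 2 (-0.28) or without WT replicate 1 (-0.33). At the other end RNF26 (-0.63, and -0.39 and not called without CR replicate 2) and USP2 (-4.41) were the last tested genes inside. NECTIN1 (-0.27), TRIM29 (-4.77) and OAF (0.21) came next outside, of which only TRIM29 was called. Over 5 Mb on the centromeric side the median was -0.33 over 23 tested genes, with 7 lower and 2 higher, and it was -0.17 without WT replicate 1 and -0.45 without CR replicate 1. Over 5 Mb on the telomeric side it was -0.49 over 22, with 9 lower and 2 higher.

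Known genes of 11q22 to 11q24 gave a mixed picture. On the centromeric side YAP1, the effector of Hippo signalling, had 133 and 114 CPM in CR and 221 and 194 CPM in WT, and fell by 0.75 ± 0.12. BIRC3, an inhibitor of apoptosis, fell by 1.58 ± 0.16 and the caspase gene CASP4 by 0.58 ± 0.13, while BIRC2 (-0.13) and NPAT (-0.17) were not called. ATM, the kinase that responds to DNA breaks, had 18.7 and 11.5 CPM in CR and 10.7 and 10.4 CPM in WT (0.51 ± 0.21, edgeR adjusted p = 0.072), and was called higher without CR replicate 2 (0.82). With all libraries it was also called higher without the filter on low counts (0.54), with the replicate block (0.47), with upper-quartile factors (0.54) and with library totals alone (0.60). On the telomeric side the sorting receptor gene SORL1 fell by 1.78 ± 0.16, and the checkpoint kinase gene CHEK1 (-0.20) was not called. JAM3 (0.15 ± 0.92) was not called either. It had only 12 and 17 counts in CR and 1 and 16 in WT, so no direction is given for it. The transcription factor gene FLI1 had 0 and 2 counts in CR and 267 and 309 in WT, a WT over CR ratio of 459 with a 95% exact binomial interval of 127 to 3802. Its neighbour ETS1 had 127 and 111 CPM in CR and 101 and 87.2 CPM in WT (0.34 ± 0.12, edgeR adjusted p = 0.0444), and was not called without WT replicate 2 (0.24) or without CR replicate 1 (0.24).

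**Figure D5:**
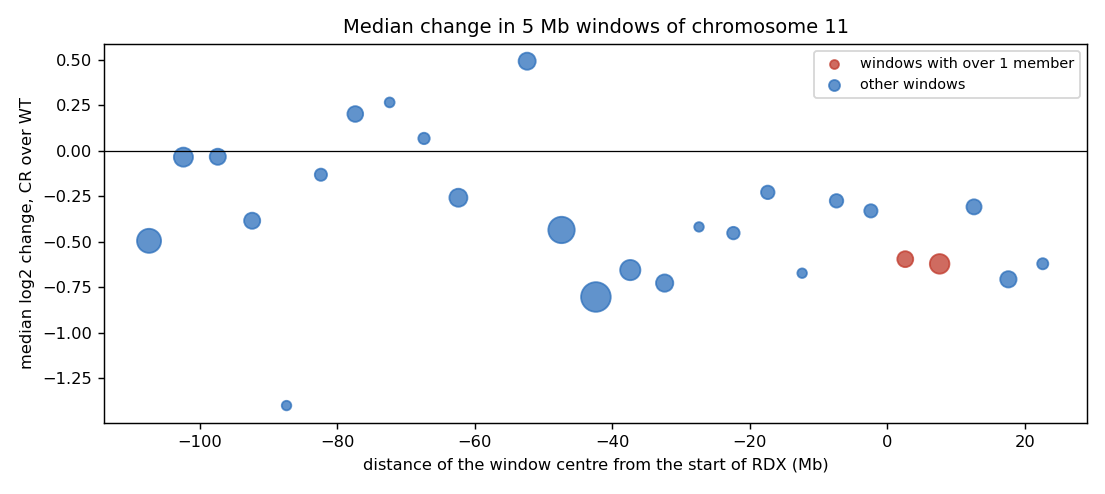
Median log2 change, CR over WT, in windows of 5 Mb along chromosome 11 against the distance in Mb of the window centre from the lower end of RDX, with point size growing with the number of tested genes. The windows with over 1 of the genes studied (red) have medians of -0.60 and -0.62, and windows on other parts of the chromosome reach similar or lower values.

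On the scale of the chromosome the segment was one of several low regions. Outside it, 893 genes of chromosome 11 were tested, 387 fell (43.3%), 96 rose (10.8%), and the median was -0.41. Genes not on chromosome 11 had a median of 0.03 over 17623 tested, with 21.96% lower. Among 23 windows of 5 Mb with at least 10 tested genes, those at 110 to 115 Mb (-0.60) and 115 to 120 Mb (-0.62) ranked 7 and 5 from the lowest. The lowest such window, at 65 to 70 Mb, had -0.80, and the highest, at 55 to 60 Mb, had 0.49. No test of the segment against the rest of the chromosome was made, since its genes were chosen with their changes known.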

How the data were processed

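RNA-seq libraries of 2 CR and 2 WT SKOV3 samples were analysed. Per the submitters' processing notes, alignment used STAR 2.5.1a and the build GRCh38.p7, with HTSeq and DESeq also listed. How reads were counted, and on which annotation, is not given in the sources used here. The deposited values are raw counts per gene, not normalized. A second deposited table was not used here. The 59 genes, the lists by role and the alternatives were chosen with earlier results of these data known, and the rule for named genes covers all 59, the 3 largest rises and falls of other genes of the segment at 1 CPM or more, and known neighbours. Because no other gene of the segment was called higher, no such rise is named. The whole table was fitted with edgeR 4.0.16 in R 4.3.3 (TMM, filterByExpr with minimum count 10 and minimum total 15, quasi-likelihood F test, group as the only term), leaving 18602 genes, with Benjamini-Hochberg adjustment over all of them. The SE is the log2 change over the square root of F. The biological coefficient of variation was 13.0%. Simulated counts with known changes were used to test the fit. Positions, exonic lengths and cover by other genes come from GENCODE 29 (56927 identifiers matched), and promoters from RefSeq. Unless a strand is named, cover is the share of a gene's whole span, introns included, overlapped by genes on either strand. RPS25 and TRAPPC4 have 2 further rows outside the primary assembly with 0 counts, which were left out. Replicate numbers do not pair the samples in the labels. Same-numbered deviations correlated at 0.068 (Pearson) over all genes tested and at 0.28 (Spearman) over the 49 genes studied. Intervals and floors cover counting error only. A further marker of other cell types is not reported here. Tools included limma 3.58.1, DESeq2 1.42.0, Python 3.11.15, pandas 2.3.3 and matplotlib 3.10.9.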

Additional observations from a re-analysis of the deposited data

How the results depend on the processing

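Under 13 alternatives (11 planned, and upper-quartile factors and library totals alone, both chosen after seeing the data), the number of genes studied that fell was 28 to 36 and the number that rose 3 to 5. All medians kept their sign. Of the 38 calls, 28 held in every setting, and of 627 values of single genes under alternatives 618 moved by less than the spread between replicates. Leaving out 1 of 2 replicates moves a group by a part of their gap, so in those settings this measure is seldom passed. A call can change without passing it. Leaving out each replicate in turn gave medians of -0.63 to -0.49 for the genes studied. For the other genes of the segment they were -0.93 to -0.69. The centromeric side had -0.45 to -0.17 and the telomeric side -0.53 to -0.33. With library totals alone, which moved the median of all genes to 0.10, the same 4 medians were -0.50, -0.73, -0.24 and -0.39. With a mean of at least 5 CPM the centromeric side had -0.24 and the telomeric side -0.40. The genes called over the whole table numbered 5974 to 9646. A fit with the replicate block, where the labels give no reason to pair the numbers, called 36 of the genes studied lower and 4 higher, with a median of -0.59, and 9646 genes in all. The causes of these shifts were not tested. At 42.6 to 83.1 counts per CPM, differences below 1 CPM rest on few reads, and with 2 libraries a group many calls near the threshold depend on 1 library.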
